A study of Sus scrofa with 7 samples.

Results

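KLF transcription factors were examined in 3 types of pig stem cell, to find which members of the family dominated in each. The 10 members considered were KLF2, KLF3, KLF4, KLF5, KLF6, KLF7, KLF9, KLF10, KLF12 and KLF13, and they were taken from the deposited tables by gene symbol. Of these, 8 had a row of that name among 29510 listed genes, and all 8 passed the filter on low counts, which kept 17447 genes. KLF2 and KLF12 had no row of that name. Where a symbol had more than 1 row, the row with the most counts was used.

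The cells were 3 lines of porcine extra-embryonic endoderm (pXEN) cells, 2 lines of porcine naïve-like embryonic stem cells (nESCs) and 2 lines of primed embryonic stem cells (pESCs), with 1 RNA-seq library per line. pXEN lines 1, 2 and 3 were at passages 26, 26 and 23, nESC lines 1 and 2 at passages 21 and 22, and both pESC lines at passage 20. According to the study's methods, the pXEN cells came from inner cell masses of parthenogenetic blastocysts and were kept in LCDM medium, which contained LIF, CHIR99021, dimethindene maleate and minocycline, on mouse embryonic fibroblast feeders. The nESC medium contained LIF, FGF, PD0325901, CHIR99021, SB431542 and doxycycline and was also used on mouse embryonic fibroblasts, whereas the pESCs grew with activin A, FGF, EGF and LIF on STO cells, a mouse embryonic fibroblast line. Per the labels, the pESCs had been converted from naïve-like cells. Medium and cell type thus changed together in every comparison and cannot be told apart, and the feeder changed with them in both comparisons with pESCs. Each replicate is a line with its own number and passage, and p-values measure the spread between these lines.

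KLF proteins are transcription factors that bind GC-rich and CACCC sequences through zinc fingers near the C-terminus. KLF2, KLF4, KLF5, KLF6 and KLF7 are mainly known as activators. KLF3 and KLF12 recruit the corepressor CtBP, and KLF9, KLF10 and KLF13 recruit Sin3. In mouse embryonic stem cells, KLF2, KLF4 and KLF5 support the naïve state, and KLF4 lies downstream of LIF and STAT3. KLF4 was among the factors first used to reprogram fibroblasts, and KLF5 is also required in the early trophectoderm of the mouse.

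The libraries held between 10408164 and 12995720 counts on genes, and a floor of 3 counts was worth 0.231 to 0.288 CPM. This floor covers counting error only. Of the listed XEN markers, 8 of 8 rose above both ESC types in pXEN cells, and their summed FPKM (fragments scaled by gene length and library total) lay between 1900 and 2380 in pXEN cells, at 13.7 and 14 in nESCs and at 74.9 and 79.7 in pESCs. The study reports OCT4, SOX2 and NANOG in nESCs but not in pXEN cells, by staining, RT-PCR and Western blot. The RNA-seq values of the pluripotent markers did not all follow that. SOX2 was at 102 and 126 FPKM in nESCs and at 147 and 154 in pESCs. POU5F1 (OCT4) had at most 5 counts in any of the 7 libraries, and NANOG had 0 and 2 counts in nESCs against 60 to 177 in pXEN cells. UTF1 was at 136 and 142 FPKM in pESCs and at most 1.71 elsewhere. DPPA5 was at 3.28 to 4.14 FPKM in pXEN cells and at most 0.809 elsewhere. pXEN line 2 stood apart from lines 1 and 3 in fibroblast markers: the summed FPKM of the 8 listed of 9 markers was 18.3, 247 and 20.4 in pXEN lines 1, 2 and 3, 11.2 and 12.4 in nESCs, and 42.5 and 72.2 in pESCs. Collagens made up most of the sum in line 2: COL1A1 was at 144 FPKM, COL3A1 at 77.5 and COL1A2 at 21.1. In lines 1 and 3, COL1A1 was at 16.1 and 14.8 FPKM, COL3A1 at 0.426 and 3.87, and COL1A2 at 0.259 and 0.482. The other listed markers were at 1.5 FPKM or less in line 2. All of these but PRRX1 (0.463, 0.397 and 0 in pXEN lines 1, 2 and 3) were highest in line 2 among the pXEN lines. SOX2 was at 1.98 FPKM in line 2 and at 0 in the other pXEN lines. Counts on 14 chromosome Y genes were 1, 38 and 3 in pXEN lines 1, 2 and 3, 11 and 4 in nESC lines, and 0 and 1 in pESC lines. The source of these reads was not tested. For members and lists whose call, sign or count changed without line 2, that value is given as well. In bulk RNA, fewer cells that express a gene and less RNA of it per cell cannot be told apart.

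KLF5 and KLF6 were the members with higher transcript levels in pXEN cells, and KLF3 and KLF13 were those with higher levels in pESCs. For nESCs, no member passed against both other types in the main test of all 7 libraries. KLF4 did so under 5 of 16 alternatives, which are given below. Differences were tested with edgeR's quasi-likelihood test on counts, in 1 model of all 7 libraries, and an adjusted p below 0.05 over all tested genes was taken as a call. Between pXEN cells and nESCs, 2 of 8 members were called higher (KLF5 and KLF6) and 2 lower (KLF7 and KLF13) in pXEN cells, beside 28.3% and 26.2% of all tested genes. Between pXEN cells and pESCs, 2 were called higher (KLF5 and KLF6) and 3 lower (KLF3, KLF9 and KLF13) in pXEN cells, beside 23.9% and 24.4% of all tested genes. Between the ESC types, 2 were called higher (KLF3 and KLF13) and 2 lower (KLF4 and KLF5) in pESCs, beside 19% and 13.3% of all tested genes. With so many genes called in each comparison, the number of members called in the main test was close to that background. Without pXEN line 2, 4 of 8 members were lower in pXEN cells than in nESCs and 4 lower than in pESCs. In that fit 3 were higher in pESCs than in nESCs, and the other counts stayed at 2. These 4, 4 and 3 stood beside 29.8%, 28.9% and 24.4% of all genes tested in that fit. With all 7 libraries, the median log2 fold change of the 8 members was −0.17, −0.71 and 0.46 in these comparisons. Over all tested genes it was 0, −0.012 and 0.012. The comparisons share libraries, so their values are given side by side and are not independent.

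**Figure D1:**
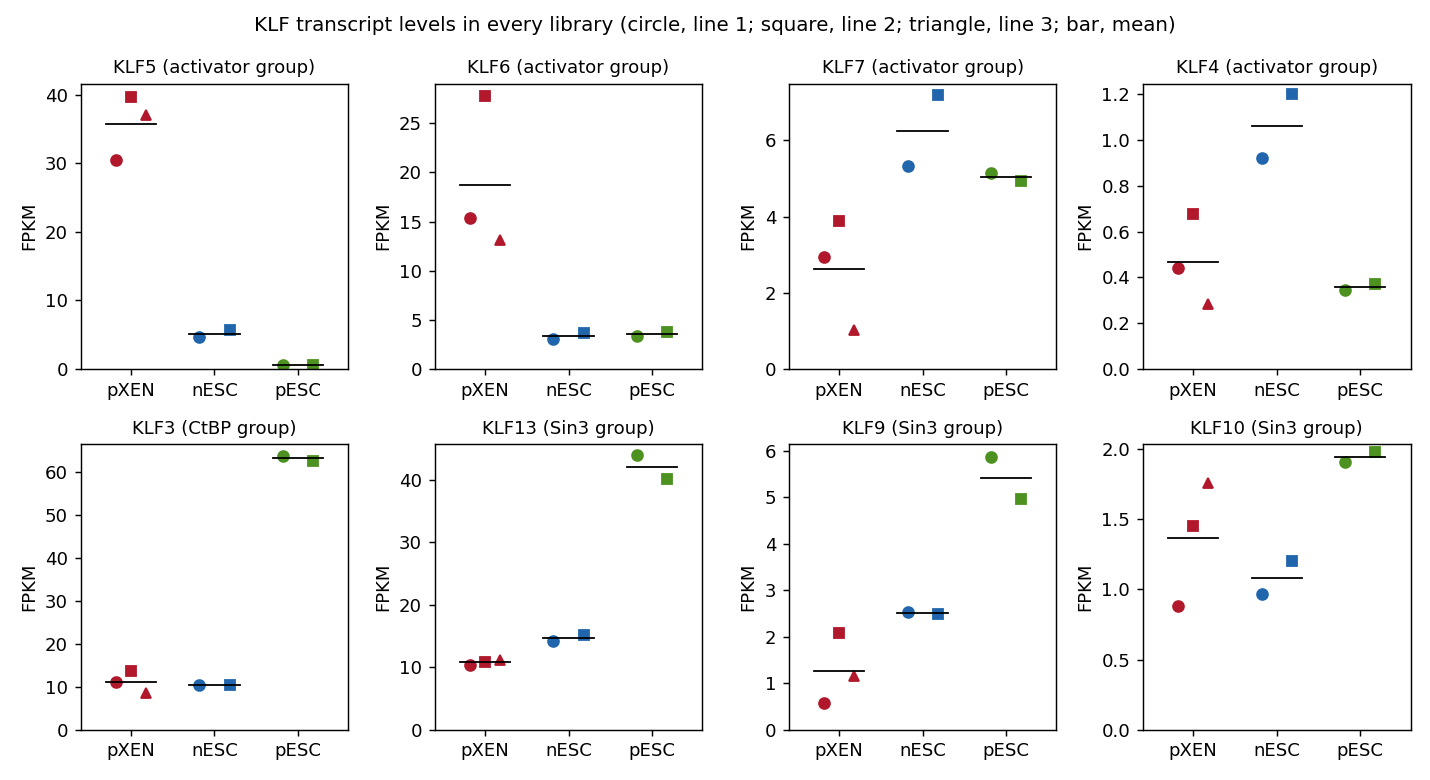
Transcript levels (FPKM, vertical axis from 0, a scale of its own in each panel) of the 8 KLF members in 3 pXEN, 2 nESC and 2 pESC lines; each symbol is 1 line and the bar is the mean of the type. KLF5 and KLF6 lay higher in every pXEN line than in any ESC line. KLF3 and KLF13 lay higher in both pESC lines than in any other line, as did KLF9 and KLF10.

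Among the activators, KLF5 showed the widest range. KLF5 (ENSSSCG00000009462, chromosome 11, 50017839 to 50031402, minus strand, build Sscrofa10.2) was at 30.5, 39.7 and 37.1 FPKM in pXEN lines 1, 2 and 3, at 4.68 and 5.62 FPKM in the nESC lines, and at 0.592 and 0.554 FPKM in the pESC lines. The 3 cell types did not overlap, and the order was pXEN, nESC, pESC. On the log2 scale KLF5 was higher in pXEN cells than in nESCs by 2.79 (SE 0.23, adjusted p = 3.67e-05), which is 6.91-fold, and higher than in pESCs by 5.94 (SE 0.30, adjusted p = 6.35e-06), which is 61.2-fold. In pESCs KLF5 fell by 3.15 on the log2 scale relative to nESCs (SE 0.33, adjusted p = 0.000352). In pESCs this rested on 5 counts in each library, so the size of both differences from pESCs is known less well than their direction. The 3 calls held under every alternative in which KLF5 was tested; a minimum of 10 counts in every library removed the gene.

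The annotation lists KLF5 in 2 rows. The second (ENSSSCG00000028760, chromosome 11, 49869696 to 49870148, plus strand, build Sscrofa10.2) lies on the other strand outside the first and was counted 87, 124 and 98 times in the pXEN lines, 23 and 13 times in the nESC lines, and 6 and 2 times in the pESC lines. It followed the same order of cell types, with log2 fold changes of 2.65, 4.91 and −2.26 for pXEN against nESC, pXEN against pESC and pESC against nESC (adjusted p = 0.00127, 0.000185 and 0.0177). With the counts of both rows added together, the log2 fold changes were 2.75, 5.58 and −2.84. Whether the second row is a copy, a pseudogene or a part of the gene was not tested.

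KLF6 (ENSSSCG00000028828, chromosome 10, 72992245 to 73001823, plus strand, build Sscrofa10.2), a widely expressed activator, was at 15.4, 27.8 and 13.1 FPKM in pXEN lines 1, 2 and 3, at 3.07 and 3.64 FPKM in nESC lines, and at 3.39 and 3.79 FPKM in pESC lines. Every pXEN line was above every ESC line, and the ESC types overlapped. The log2 fold change was 2.48 against nESCs (SE 0.34, adjusted p = 5e-04) and 2.40 against pESCs (SE 0.34, adjusted p = 0.000727). Between pESCs and nESCs it was 0.08, with a 95% interval from −0.73 to 0.90 (adjusted p = 0.887). Line 2 was 1.81 times as high as the next pXEN line. Without line 2, the fold changes were 2.08 (adjusted p = 7.51e-06) and 1.99 (adjusted p = 1.29e-05), so both differences remained without that library.

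KLF7 (ENSSSCG00000029998, chromosome 15, 121838760 to 121892429, minus strand, build Sscrofa10.2), an activator known from neural development, was at 2.94, 3.87 and 1.03 FPKM in pXEN lines 1, 2 and 3, at 5.33 and 7.18 FPKM in nESC lines, and at 5.13 and 4.92 FPKM in pESC lines. All pXEN lines were below all ESC lines, and line 3 was well below lines 1 and 2. Relative to nESCs, KLF7 fell by 1.26 on the log2 scale (SE 0.44, adjusted p = 0.0421), close to the threshold. This call was lost under 7 of 16 alternatives: in the limma fit of log2(FPKM + 0.1) (adjusted p = 0.0557), when only the cell types compared were fitted (0.0606), without pXEN line 1 (adjusted p = 0.0741), without nESC line 1 (0.0801) or 2 (0.199), and without pESC line 1 (0.0703) or 2 (0.0701). Relative to pESCs, the fold change of −0.93 (95% interval −1.96 to 0.10, adjusted p = 0.122) was not called, and without pXEN line 2 it was −1.34 and called (adjusted p = 0.0192). Between pESCs and nESCs it was −0.33 (95% interval −1.45 to 0.79, adjusted p = 0.644).

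KLF4 (ENSSSCG00000005437, chromosome 1, 279056681 to 279061593, minus strand, build Sscrofa10.2), the reprogramming factor, had the lowest mean FPKM of the 8 members in each cell type, although KLF5 was lower in both ESC types when set to the median length of the others. It was at 0.442, 0.675 and 0.283 FPKM in pXEN lines 1, 2 and 3 (14, 25 and 10 counts), at 0.922 and 1.2 FPKM in nESC lines (36 and 45 counts) and at 0.345 and 0.369 FPKM in pESC lines (14 and 16 counts). Both nESC lines were above all other libraries, and pXEN and pESC lines overlapped. In nESCs the range of KLF4 overlapped that of KLF10 (0.965 and 1.2 FPKM). By total counts, KLF10 was below KLF4 in nESCs (77 against 81), and KLF5 was below KLF4 in pESCs (10 against 30). In pESCs KLF4 fell by 1.57 on the log2 scale relative to nESCs (SE 0.51, adjusted p = 0.0471). That call was lost under 8 of 16 alternatives, among them leaving out pXEN line 1 (adjusted p = 0.0674), nESC line 1 (0.11) or 2 (0.189), or pESC line 1 (0.2) or 2 (0.184). Relative to nESCs, the difference of −1.18 in pXEN cells (95% interval −2.21 to −0.14, adjusted p = 0.0549) was not called, but it was called under 5 of 16 alternatives: without pXEN line 2 (−1.55, adjusted p = 0.0152), with upper-quartile scaling (0.0297), with a minimum of 10 counts in every library (0.023), and in limma fits of log2(FPKM + 1) (0.0285) and log2(FPKM + 0.1) (0.0457). Under these 5 alternatives the fall of KLF4 in pESCs was also called (adjusted p = 0.0185, 0.0355, 0.021, 0.031 and 0.0474, in the same order). There KLF4 was thus called above both other types in nESCs. Between pXEN cells and pESCs the log2 fold change was 0.40 (95% interval −0.71 to 1.51, adjusted p = 0.531).

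In the CtBP-recruiting group, KLF3 (ENSSSCG00000022270, chromosome 8, 31513438 to 31539470, plus strand, build Sscrofa10.2) was at 11.2, 13.7 and 8.58 FPKM in pXEN lines 1, 2 and 3, at 10.4 and 10.3 FPKM in nESC lines, and at 63.7 and 62.7 FPKM in pESC lines. The pESC lines stood far above the rest, and the nESC values lay within the pXEN range. Relative to nESCs, KLF3 rose in pESCs by 2.6 on the log2 scale (SE 0.21, adjusted p = 9.75e-05), which is 6.07-fold. The pXEN cells were lower than pESCs by a log2 fold change of −2.49 (SE 0.18, adjusted p = 2.82e-05). Between pXEN cells and nESCs it was 0.11, with a 95% interval from −0.31 to 0.53 (adjusted p = 0.633), and its sign turned without pXEN line 2 (−0.07).

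KLF12, a repressor of the gene for AP-2α (TFAP2A), had no row by name, but an unnamed row carried its Ensembl identifier in the supplied gene table (ENSSSCG00000025130, unplaced scaffold GL894284.2, 84266 to 120275, minus strand, build Sscrofa10.2). This match lies outside the rule by symbol, so KLF12 is not counted among the 8. Reads on this row numbered 21, 17 and 23 for pXEN, 0 and 1 for nESC, and 33 and 37 for pESC lines. It was thus near the floor in nESCs and above it in the other types. The ratio of counts scaled by library size was 44.8 for pXEN cells over nESCs, with a 95% interval of 7.74 to 1800 for counting error, and 63.3 for pESCs over nESCs, with an interval of 11 to 2530 (edgeR adjusted p = 0.000863 and 0.00146). Between pXEN cells and pESCs the log2 fold change was −0.49 (95% interval −1.54 to 0.57, adjusted p = 0.412). KLF3 and KLF12, which recruit the same corepressor, thus had different profiles: at 10.3 ± 0.086 FPKM (SD, n = 2) KLF3 was well above the floor in nESCs.

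In the Sin3-recruiting group, KLF13 (ENSSSCG00000026006, chromosome 1, 159396562 to 159485685, minus strand, build Sscrofa10.2), known as an activator of the chemokine gene CCL5 in T cells, had the lowest ratio of highest to lowest pXEN line among the 8 members, 1.08. It was at 10.3, 10.8 and 11.2 FPKM in pXEN lines 1, 2 and 3, at 14.2 and 15.1 FPKM in nESC lines, and at 44 and 40.2 FPKM in pESC lines. The 3 types did not overlap. KLF13 rose in pESCs relative to nESCs by 1.51 on the log2 scale (SE 0.11, adjusted p = 7.1e-05), and was lower in pXEN cells than in pESCs with a log2 fold change of −1.96 (SE 0.10, adjusted p = 5.85e-06). The smaller difference between pXEN cells and nESCs, −0.45 (SE 0.10, adjusted p = 0.00568), was also called and kept its call in 16 of 16 alternatives.

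KLF9 (ENSSSCG00000021646, chromosome 1, 250030153 to 250057245, plus strand, build Sscrofa10.2), a target of glucocorticoid and thyroid hormone receptors, was at 0.567, 2.08 and 1.16 FPKM in pXEN lines 1, 2 and 3, at 2.52 and 2.48 FPKM in nESC lines, and at 5.87 and 4.95 FPKM in pESC lines. The types did not overlap, and the order of their levels was pESC, nESC, pXEN, but the pXEN lines differed 3.66-fold between the highest and the lowest. Against pESCs the log2 fold change of −2.07 was called (SE 0.42, adjusted p = 0.00464), and it was −2.63 without pXEN line 2. Against nESCs it was −0.97 (95% interval −1.97 to 0.02, adjusted p = 0.0891) and not called, and without pXEN line 2 it was −1.53 (adjusted p = 0.00241). Between pESCs and nESCs it was 1.10 (95% interval 0.03 to 2.16, adjusted p = 0.107), and it was called without pXEN line 1 (adjusted p = 0.0304) or pXEN line 2 (adjusted p = 0.0106), which enter that comparison through the shared estimate of the spread, and when the ESC types were fitted alone (adjusted p = 0.00237).

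KLF10 (ENSSSCG00000027480, chromosome 4, 37443340 to 37453430, minus strand, build Sscrofa10.2), first described as a TGFβ-inducible early gene, was at 0.883, 1.45 and 1.76 FPKM in pXEN lines 1, 2 and 3, at 0.965 and 1.2 FPKM in nESC lines, and at 1.91 and 1.98 FPKM in pESC lines. The pXEN lines spread over the nESC range, and the pESC lines lay above both. No comparison was called: the log2 fold change was 0.33 for pXEN against nESC (95% interval −0.51 to 1.17, adjusted p = 0.468), −0.50 for pXEN against pESC (−1.30 to 0.31, adjusted p = 0.275) and 0.83 for pESC against nESC (−0.07 to 1.73, adjusted p = 0.144). A second KLF10 row (ENSSSCG00000027819, unplaced scaffold GL893544.2) held 3 and 5 counts in pXEN lines 1 and 2 but 47 in line 3, with 6 and 3 for nESC and 1 and 7 for pESC lines. The filter on low counts removed that row. With both rows added together, the log2 fold changes were 0.67, −0.08 and 0.74, and again none was called.

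**Figure D2:**
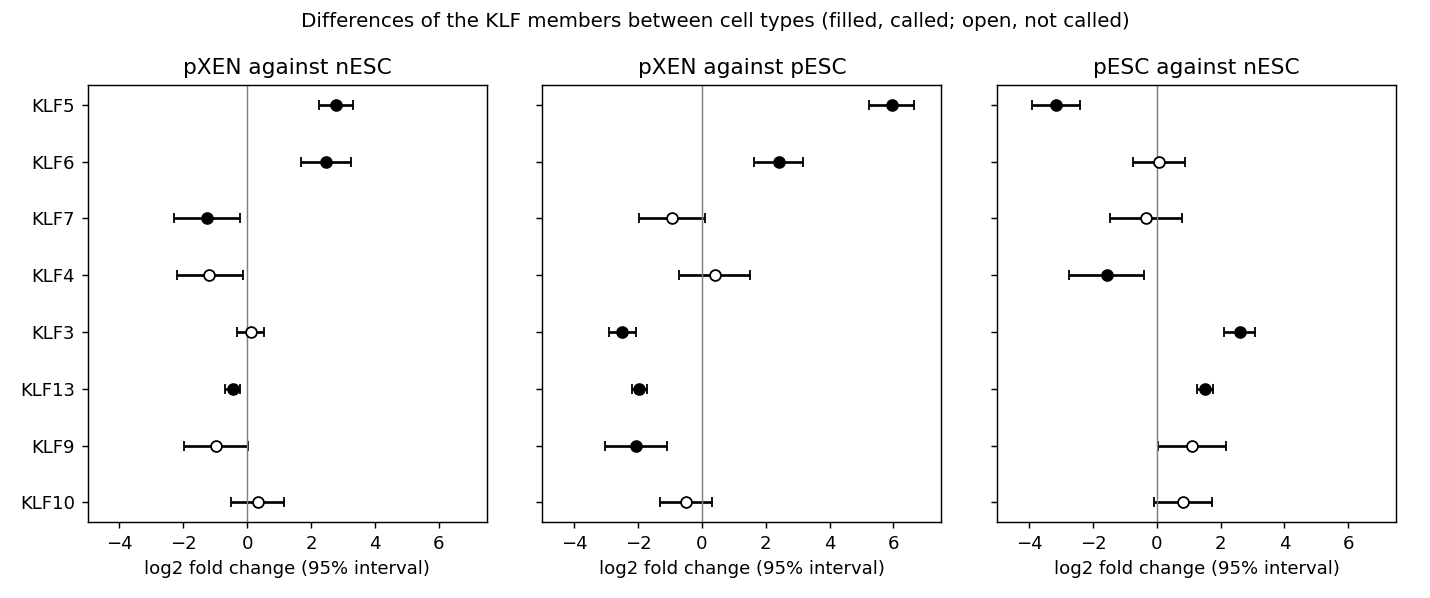
Log2 fold changes (horizontal axis) of the 8 KLF members in the 3 comparisons, from edgeR, with 95% intervals; filled points passed an adjusted p of 0.05. KLF5 reached 5.94 in pXEN cells against pESCs, and KLF3 and KLF13 lay at −2.49 and −1.96 in the same comparison.

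The family differed in total as well as in makeup. The FPKM summed over the 8 members was 82.2 ± 15.6 in pXEN cells (SD, n = 3), 44.4 ± 3.25 in nESCs (SD, n = 2) and 122 ± 3.83 in pESCs (SD, n = 2), and the 3 ranges did not overlap. The pXEN mean was 73.2 without line 2. The size of the gap between pXEN cells and nESCs depended on the listed length of KLF5, 669 bases. With KLF5 set to the median length of the other members, an alternative added after the values were seen, the sum was 46.7, 66.8 and 43.2 in pXEN lines 1, 2 and 3 and 38.2 and 42 in nESC lines, a smaller gap with no overlap. By counts, with no scaling by length, the members summed to 202, 272 and 191 CPM in pXEN lines and 193 and 211 CPM in nESC lines, which overlapped, while the pESC lines, at 676 and 625 CPM, stayed above both. By level per length, KLF5 led in pXEN cells with 42.2%, 39.7% and 50% of that sum in lines 1, 2 and 3. KLF6 followed with 22.2% ± 5.10 (SD, n = 3), KLF3 with 13.6% ± 1.99 and KLF13 with 13.4% ± 2.27. In nESCs KLF13 led with 33.8% and 32.3% in lines 1 and 2, followed by KLF3 with 23.3% ± 1.90 (SD, n = 2), KLF7 with 14% ± 1.91 and KLF5 with 11.6% ± 0.656. In pESCs KLF3 led with 51% and 52.5% in lines 1 and 2, KLF13 followed with 34.4% ± 1.13 (SD, n = 2), and KLF5 held 0.469%. Among the 8 members with a row, KLF3 and KLF13 were thus the main transcripts of both ESC types, in opposite order. In pXEN cells they ranked below KLF5 and KLF6 by mean level. KLF2, which had no row, is not covered by these orders.

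Neighbours in these orders were not always distinct. In pXEN cells, the FPKM ranges of KLF5 and KLF6 were separate. Those of KLF6 and KLF3 overlapped, as did those of KLF3 and KLF13, but KLF6 was above KLF3 in 3 of 3 lines and its range was separate from that of KLF13. The order of KLF3 and KLF13 was not resolved, KLF3 being higher in 2 of 3 lines. The gap between KLF13 and KLF7 was clear, and below it KLF7, KLF10, KLF9 and KLF4 each overlapped with the next. In nESCs the order was KLF13, KLF3, KLF7, KLF5, KLF6, KLF9, KLF10 and KLF4, with overlap between KLF7 and KLF5 and between KLF10 and KLF4. In pESCs it was KLF3, KLF13, KLF9, KLF7, KLF6, KLF10, KLF5 and KLF4, with overlap between KLF9 and KLF7.

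**Figure D3:**
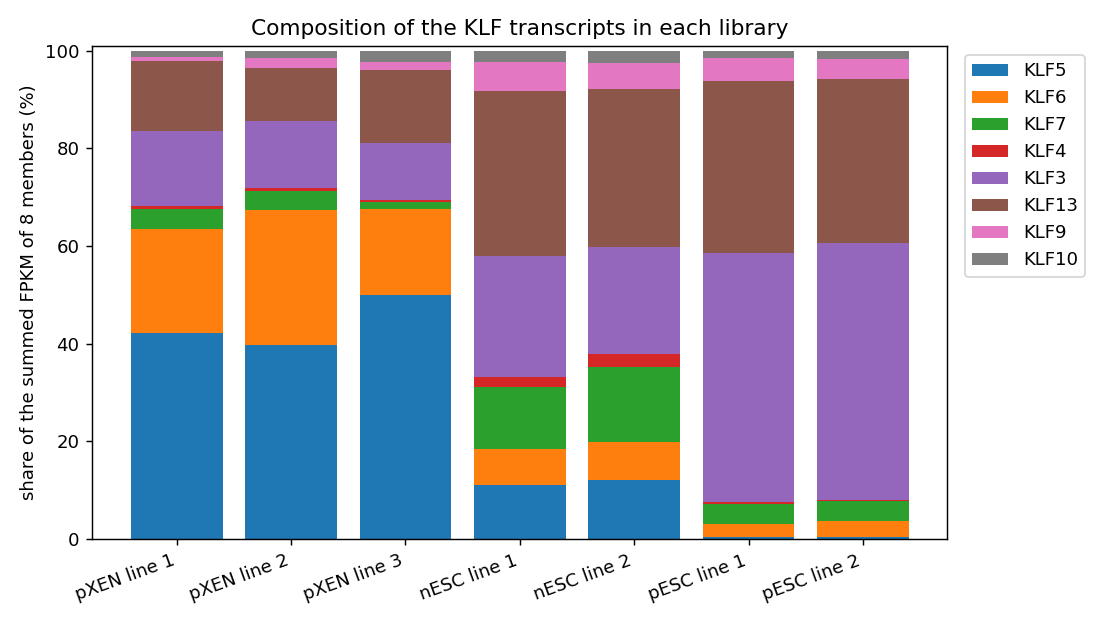
Share of each member in the summed FPKM of the 8 KLF members (vertical axis, percent), 1 stacked bar per library. KLF5 took 39.7% to 50% in pXEN lines and 11.1% and 12.1% in nESC lines, and KLF3 took 51% and 52.5% in pESC lines.

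The lead of KLF5 in pXEN cells turned on the length that the annotation gives it. The KLF5 row has a listed length of 669 bases, while its interval spans 13564 bases, and the other 7 members have listed lengths with a median of 4112 bases. FPKM divides by that length. By raw counts, with no scaling by length, KLF6 held 31.7% ± 5.85 of the members' counts in pXEN cells (SD, n = 3), KLF13 25.6%, KLF3 24.3% and KLF5 10.3%. KLF6 held 29.7%, 38.3% and 27.2% in lines 1, 2 and 3, and KLF13 26.4%, 19.8% and 30.7%. Without line 2, the means were 28.4% for KLF6 and 28.6% for KLF13, so by raw counts the lead of KLF6 over KLF13 rested on line 2. With KLF5 set to the median length of the others, KLF6 led with 35% ± 5.84 and KLF5 held 11.4%, and KLF6 still led without line 2, with 31.7% against 24% for KLF13. With both rows of KLF5 and KLF10 added together and KLF12 included, KLF5 led with 38.3% ± 4.11. KLF5 in nESCs likewise held 1.84% by raw counts and 2.09% at the median length. KLF13 in nESCs and KLF3 in pESCs led under all 4 measures. The fold changes of KLF5 between cell types do not depend on its length, which is the same in every library.

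**Figure D4:**
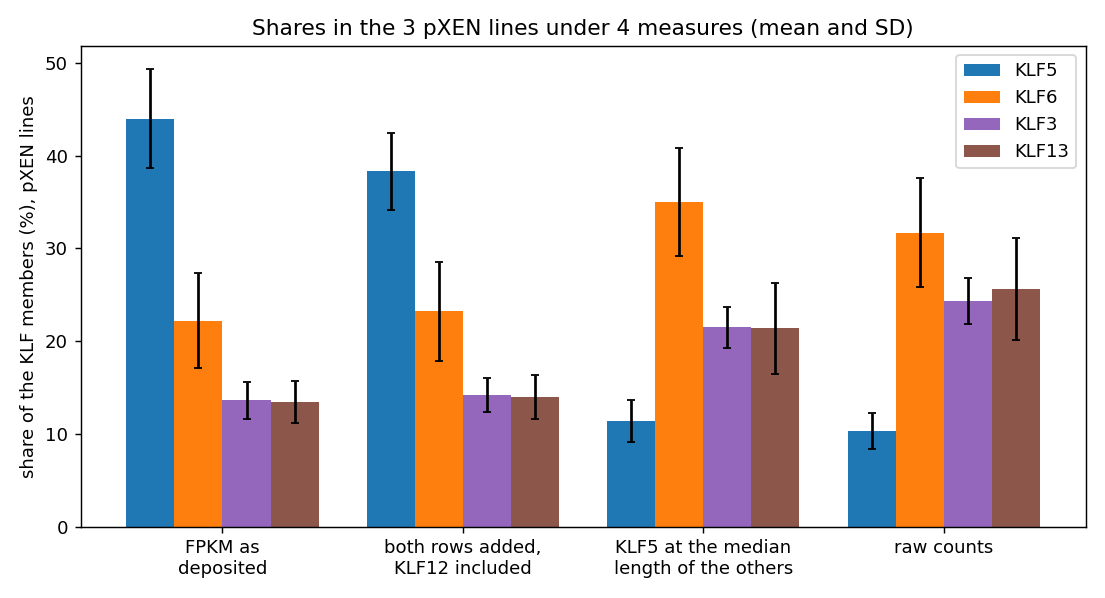
Mean share (percent, with SD over 3 lines) of KLF5, KLF6, KLF3 and KLF13 in pXEN cells under 4 measures. KLF5 led with 44% by FPKM as deposited and with 38.3% when both rows were added, and KLF6 led with 35% at the median length and 31.7% by raw counts, the last only with line 2 included.

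Variation among the pXEN lines was larger for several members than for most genes. The highest line exceeded the lowest by more than 2-fold in FPKM for KLF4 (2.39-fold), KLF6 (2.12-fold), KLF7 (3.74-fold) and KLF9 (3.66-fold), beside 18% of the 15027 tested genes whose pXEN libraries averaged 10 counts or more. Line 2 was the highest for 6 of 8 members, beside 42.6% of those genes. It exceeded the next line by more than 1.5-fold for KLF4, KLF6 and KLF9 (1.53, 1.81 and 1.79 times), beside 8.36% of those genes. Line 2 is the library with the raised fibroblast collagens, and whether other cells contributed to these values was not tested. KLF5 and KLF13, at 1.07 and 0.967 times the highest of the other lines, were not raised in line 2 in this way.

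Of 17 other members of the KLF and SP families, which share the zinc finger domain, 14 were listed and 11 were tested. Against nESCs, 7 of the 11 were called higher and 1 lower in pXEN cells, against pESCs 4 higher and 1 lower, and in pESCs against nESCs 4 higher and 1 lower. Of all tested genes, as above, 28.3% and 26.2%, 23.9% and 24.4%, and 19% and 13.3% were called higher and lower in these comparisons. Without pXEN line 2 the first count was 6 higher, beside 30.2% of all genes tested in that fit. Their median log2 fold changes were 1.07, 0.13 and 0.45. KLF1, the erythroid factor that activates the β-globin gene, was at 2.79, 3.61 and 3.16 FPKM in pXEN lines (45, 68 and 57 counts) and had 1 and 0 counts in nESC lines and 2 and 0 in pESC lines. The ratio of its scaled counts was 125 over nESCs (95% counting interval 22.1 to 4950) and 69 over pESCs (18.8 to 574), with edgeR adjusted p = 0.000471 and 0.000678.

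KLF15, a metabolic regulator in liver and muscle, was at 7.67, 10.3 and 8.28 FPKM in pXEN lines, at 4.53 and 3.75 FPKM in nESC lines and at 2.86 and 3.38 FPKM in pESC lines. It was higher in pXEN cells by 1.07 and 1.5 on the log2 scale (adjusted p = 0.00998 and 0.00277). KLF11, which like KLF9 recruits Sin3, was at 2.25, 1.51 and 1.89 FPKM in pXEN lines, at 0.8 and 0.297 FPKM in nESC lines and at 2.09 and 1.54 FPKM in pESC lines. It was lowest in nESCs, with log2 fold changes of 1.75 in pXEN cells and 1.69 in pESCs relative to nESCs (adjusted p = 0.0207 and 0.0467). KLF16 was at 4.59 to 8.13 FPKM in the 7 libraries with no call. KLF8, KLF14 and KLF17 were too low to test: KLF8 had 9 and 21 counts in pESC lines and at most 4 elsewhere, KLF17 had 5 and 1 counts in nESC lines and 0 elsewhere, and KLF14 had 1 count in 1 pESC line.

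Of the SP factors, SP8, known from limb outgrowth, was at 47, 42.4 and 41.8 FPKM in pXEN lines, at 5.29 and 8.29 FPKM in nESC lines and at 9.79 and 6.99 FPKM in pESC lines. Its listed length is 1464 bases, so its FPKM and those of the KLF members rest on unequal lengths. The log2 fold changes were 2.68 and 2.39 (adjusted p = 4.97e-05 and 0.000117). SP1, a ubiquitous activator, was at 28.5, 24.4 and 26.8 FPKM in pXEN lines, at 16.6 and 18.6 FPKM in nESC lines and at 24.3 and 25.7 FPKM in pESC lines. It was lowest in nESCs, with log2 fold changes of 0.59 in pXEN cells and 0.49 in pESCs relative to nESCs (adjusted p = 0.00369 and 0.0206). SP7, the osteoblast factor osterix, was at 10.7, 5.35 and 13.9 FPKM in pXEN lines, at 0 and 0.0658 FPKM in nESC lines and at 0.914 and 1.08 FPKM in pESC lines. SP4 was at 3.99, 4.97 and 5.85 FPKM in pXEN lines, at 7.66 and 11.3 FPKM in nESC lines and at 5.29 and 3.62 FPKM in pESC lines. It was highest in nESCs, with log2 fold changes of −0.94 in pXEN cells and −1.10 in pESCs relative to nESCs (adjusted p = 0.0211 and 0.0292).

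Of 11 KLF cofactors, 10 were listed and 9 tested. Against nESCs 3 were called higher and 1 lower in pXEN cells, against pESCs 2 higher and 1 lower, and in pESCs against nESCs 2 higher, with the other 7 not called. Of all tested genes, 28.3%, 23.9% and 19% were called higher and 26.2%, 24.4% and 13.3% lower. Without pXEN line 2 the counts higher were 6, 5 and 4, with EP300, CREBBP and SIN3B added against nESCs, beside 30.2%, 26.5% and 24.4% of all genes tested in that fit. The median log2 fold changes were 0.21, 0.24 and −0.08. CTBP2, a corepressor that KLF3 and KLF12 bind, was at 35.6, 46.6 and 32.5 FPKM in pXEN lines, at 37.8 and 35.6 FPKM in nESC lines and at 85.3 and 80.2 FPKM in pESC lines. It was higher in pESCs than in nESCs by 1.16 on the log2 scale (adjusted p = 0.00199) and lower in pXEN cells than in pESCs by a log2 fold change of −1.10 (adjusted p = 0.000738). The order of the cell types for CTBP2 was that of KLF3, with pESCs above the overlapping other types. RCOR1, the REST corepressor, was at 34, 33 and 38.3 FPKM in pXEN lines, at 13.3 and 15.6 FPKM in nESC lines and at 21.3 and 18.3 FPKM in pESC lines, with log2 fold changes of 1.27 and 0.83 in pXEN cells (adjusted p = 0.000183 and 0.00182). SAP30, a subunit of the Sin3 complex, fell by 0.95 on the log2 scale in pXEN cells relative to nESCs (adjusted p = 0.0446). The Sin3 scaffold SIN3A was higher in pXEN cells than in nESCs by 0.54 (adjusted p = 0.00273), and SIN3B than in pESCs by 0.55 (adjusted p = 0.0166). KAT2B, a histone acetyltransferase, was at 4.97, 3.02 and 6.27 FPKM in pXEN lines, at 0.431 and 0.773 FPKM in nESC lines and at 7.46 and 8.68 FPKM in pESC lines, and was higher than in nESCs by 2.97 in pXEN cells and 3.72 in pESCs (adjusted p = 0.000587 and 0.000645).

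Of 14 genes that act upstream of KLF factors or on their turnover, 13 were listed and tested. Against nESCs 4 were called higher and 2 lower in pXEN cells, against pESCs 4 higher and 1 lower, and in pESCs against nESCs 4 higher and 2 lower. Of all tested genes, 28.3% and 26.2%, 23.9% and 24.4%, and 19% and 13.3% were called in these directions. Without pXEN line 2 the counts were 5 and 2, 4 and 2, and 5 and 2, beside 30.2% and 29.8%, 26.5% and 28.9%, and 24.4% and 19.4% of all genes tested in that fit. The median log2 fold changes were 0.34, 0.14 and 0.20. STAT3, which carries the LIF signal to KLF4 in mouse cells, was at 14.5, 18.8 and 16 FPKM in pXEN lines, at 42.2 and 44.3 FPKM in nESC lines and at 13.7 in both pESC lines. STAT3 and KLF4 were each highest in both nESC lines, but KLF4 was not called between pXEN cells and nESCs in the main test. A link between these genes was not tested. The fold changes of STAT3 were −1.40 in pXEN cells and −1.67 in pESCs relative to nESCs (adjusted p = 6.97e-05 and 0.000177). IL6ST, the gp130 chain that LIFR pairs with, was higher in pESCs than in nESCs by 0.86 (adjusted p = 0.013). LIFR, the LIF receptor, was lower in pXEN cells than in pESCs by a log2 fold change of −0.90 (adjusted p = 0.0026).

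MEF2C, a factor of the MEF2 group that activates KLF2 and KLF4 in endothelium, was at 4.44, 10 and 4.98 FPKM in pXEN lines, at 1.97 in both nESC lines and at 0.583 and 0.58 FPKM in pESC lines. It showed log2 fold changes of 1.71 and 3.48 in pXEN cells against nESCs and pESCs (adjusted p = 0.00731 and 0.000503), and line 2 was again the highest; without it they were 1.25 and 3.01 and still called (adjusted p = 0.00397 and 6e-05). Of the ubiquitin ligases that act on KLF2 or KLF5, SMURF1 was at 12.4, 6.06 and 14.7 FPKM in pXEN lines, at 0.894 and 1.38 FPKM in nESC lines and at 3.45 and 4.05 FPKM in pESC lines, with log2 fold changes of 3.27 and 1.56 in pXEN cells (adjusted p = 0.000318 and 0.00846). WWP1 was higher in pXEN cells than in nESCs by 0.70 (adjusted p = 0.00122), and FBXW7 was lower by a log2 fold change of −0.46 (adjusted p = 0.0484), a call lost without pXEN line 2 (−0.35, adjusted p = 0.0735).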

How the data were processed

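RNA from 7 cell lines was sequenced as directional, rRNA-depleted libraries. Per the submitters' processing notes, HISAT2 2.0.5, featureCounts 1.5.0-p3, edgeR 3.22.5 and the build Sscrofa10.2 were used. Whether reads were counted by strand, and how reads that map to several places were treated, is not given in the sources used here. The authors deposited raw read counts per gene, without normalization, and FPKM values, in which fragments are scaled by gene length and library total. The FPKM imply library totals of 0.913 to 1.083 times the counts on genes, so a scaling close to TMM was part of them.

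Groups were taken from the labels. Counts were tested with edgeR 4.0.16 in R 4.3.3 (filterByExpr, TMM, quasi-likelihood test, Benjamini-Hochberg adjustment over 17447 genes, adjusted p below 0.05), in 1 model of all 7 libraries without covariates. Standard errors and 95% intervals were derived from the F statistic. The scripts were tested on simulated data. Intervals of count ratios cover counting error only. Alternatives were other scalings, filters and tests (DESeq2 1.42.0 and limma 3.58.1 on log2(FPKM + 1) and log2(FPKM + 0.1)), a replicate block and each library left out in turn. Shares are of the summed FPKM of the 8 members with a row, the 10 members having been intended.

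The members and gene lists were chosen with earlier results of these data known. All members were named. From the other lists, every listed KLF-named gene was named and, per comparison, up to 2 called genes with the highest and up to 2 with the lowest fold change whose groups did not overlap and whose mean log2 CPM was at least 2. SIN3A, WWP1, EP300, CREBBP, POU5F1, COL3A1, CCL5 and other list genes outside this rule were picked after their values were seen. Names missing from the tables were looked up by Ensembl identifier in a supplied gene table, which found KLF12 and 8 genes of the other lists. No sequence of the members was used here.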

Additional observations from a re-analysis of the deposited data

How the results depend on the processing

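Of 24 member results (8 members in 3 comparisons), 16 kept their direction and their side of the threshold under every alternative run. The other 8 were KLF3, KLF4, KLF7 and KLF9 for pXEN against nESC, KLF7 for pXEN against pESC, and KLF4, KLF6 and KLF9 for pESC against nESC; where a cause is not stated, the cause was not tested. Directions turned for results that were not called: KLF3 for pXEN against nESC was −0.06 with upper-quartile scaling and −0.07 without pXEN line 2 (−0.07 to 0.28 with each library left out), and KLF6 for pESC against nESC was −0.0042 with upper-quartile scaling and −0.04 without nESC line 1 (−0.04 to 0.22). Upper-quartile scaling moved the median of all genes by −0.17, −0.08 and −0.09 in the 3 comparisons. A minimum of 10 counts in every library removed KLF5 and left 1 member (KLF6) higher in pXEN cells than in nESCs and 1 higher than in pESCs. The number lower in pXEN cells than in nESCs was 4 with upper-quartile scaling, 1 when only the 2 cell types compared were fitted, and 1 to 4 with each library left out (4 without pXEN line 2). The number lower in pESCs than in nESCs was 1 without a filter, with a minimum of 10 counts, with DESeq2 and with a replicate block, and 1 to 2 with each library left out.

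The share of the leading member of pXEN cells, KLF5, was 10.3% by raw counts, 28.9% among all KLF-named genes, and, as alternatives chosen after seeing the data, 38.3% with both rows added and KLF12 included and 11.4% at the median length. For KLF13 in nESCs these were 42.7%, 24.9% and, at the median length, 36.6%. For KLF3 in pESCs they were 46.7% among all KLF-named genes and 50.5% with the rows added.

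Same-numbered lines of different types were compared by their deviations from the type means, which correlated at −0.009 to 0.044 across genes. With 2 lines in a type, these deviations mirror each other. The range over all pairs, −0.048 to 0.048, is therefore symmetric by construction. Whether lines share an origin cannot be settled in this way. With the replicate block the call of KLF4 in pESCs against nESCs was lost (−1.56, adjusted p = 0.0622), and no other member's call changed. Where a library left out leaves 1 of a type, that line is assumed to vary like the others. Over all genes, leaving out a pESC or nESC line lowered the genes called lower in pESCs than in nESCs from 2313 to between 928 and 1341.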

Other observations

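Of 8 textbook targets of KLF factors, 7 were listed and 6 tested. Against nESCs 1 was called higher and 2 lower in pXEN cells, against pESCs 1 higher and 4 lower, and 4 were higher in pESCs than in nESCs, with median log2 fold changes of −0.17, −1.83 and 1.14. Without pXEN line 2, 5 were lower against pESCs, with NOS3 added, beside 28.9% of all genes tested in that fit. Of all tested genes, 28.3% were higher and 26.2% lower in the first comparison, 23.9% and 24.4% in the second, and 19% were higher in the third. SMAD7, the inhibitor of TGFβ signalling, was at 21, 24.7 and 20 FPKM in pXEN lines, at 1.85 and 2.82 FPKM in nESC lines and at 3.64 and 4.06 FPKM in pESC lines. The pXEN lines were well above the rest, 9.34-fold above nESCs and by 2.51 on the log2 scale above pESCs (edgeR adjusted p = 1.31e-05 and 5.32e-05). CDKN1A, the cell cycle inhibitor p21 and a target of KLF4 and KLF6, was at 2.46, 1.38 and 4.51 FPKM in pXEN lines, at 45.2 and 5.24 FPKM in nESC lines and at 31.4 and 14.2 FPKM in pESC lines. It was lower in pXEN cells (log2 fold changes −3.18 and −3.03, adjusted p = 0.0134 and 0.0193), but the 2 lines of each ESC type differed widely. CCND1, the cyclin D1 gene, was higher in pESCs than in nESCs by 1.58 (adjusted p = 0.0383). THBD, the thrombomodulin gene induced by KLF2 in endothelium, had 0, 10 and 2 counts in pXEN lines, 13 and 29 in nESC lines and 282 and 360 in pESC lines. TFAP2A, the gene repressed by KLF12, was at 0.361, 0.337 and 0.294 FPKM in pXEN lines, at 0.267 and 0.388 FPKM in nESC lines and at 0.897 and 2.54 FPKM in pESC lines, so both pESC lines were above the other libraries. CCL5, the target of KLF13, had at most 4 counts in any library.

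Of 12 pluripotency partners and targets of KLF factors, all were listed and 8 tested; in pXEN cells 4 rose and 3 fell against nESCs, while 3 rose and 3 fell against pESCs, and 4 rose in pESCs against nESCs, beside the same shares of all tested genes. Without pXEN line 2 the last count was 5, with SOX2 added (log2 fold change 0.39, adjusted p = 0.0313), beside 24.4% of all genes tested in that fit. The median log2 fold changes were 0.65, 0.37 and 3.14. TFCP2L1, PRDM14, TCL1A and POU5F1 were too low to test. ESRRB, a partner of KLF factors in naïve mouse cells, had 0 counts in the pXEN lines, 26 and 17 in the nESC lines and 840 and 923 in the pESC lines, so it was higher in the primed than in the naïve-like lines (log2 fold change 5.21, edgeR adjusted p = 7.67e-05). TFAP2C, an AP-2 factor, had 0 counts in the pXEN lines, 17 and 18 in the nESC lines and 1553 and 1519 in the pESC lines. TBX3 had 1024, 785 and 953 counts in pXEN lines, 0 in both nESC lines and 4 and 0 in pESC lines.

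The second KLF10 row had 47 counts in pXEN line 3 and at most 7 in any other library, while the first row had 58, 50 and 26 counts in pXEN lines 3, 2 and 1.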
